A study of Mus musculus with 9 samples.

Results

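Pyruvate entry, the tricarboxylic acid (TCA) cycle and the glutamine enzymes were examined as a set of 32 genes in CD8+ T cells of C57BL/6 mice. The genes were taken by symbol from a list of the pathway's enzymes and carriers, out of 53679 gene rows in the deposited table. All 32 were found, and all 32 passed the low-count filter, as did 15348 genes in all. RNA was taken after 3 days of activation from 3 groups of 3 libraries. The groups were Tc0 cells with no agent, Tc0 cells activated with coenzyme A (CoA) and Tc22 cells with no agent. By the field's usage, no polarising cytokine is added for Tc0 cells, and Tc22 cells are the subset that makes interleukin-22. Neither culture conditions, nor the CoA dose, nor the age of the mice are stated by the labels. Each of mice 715, 725 and 728 gave 1 library of every group, so the 3 comparisons were made within mice and share libraries with one another.

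Pyruvate made by glycolysis enters mitochondria through the mitochondrial pyruvate carrier. There the pyruvate dehydrogenase complex turns it into acetyl-CoA, using free CoA as the acceptor, or pyruvate carboxylase turns it into oxaloacetate. Citrate synthase joins the products, and the cycle returns them to oxaloacetate through isocitrate, 2-oxoglutarate, succinyl-CoA, succinate, fumarate and malate. Glutamine feeds in as 2-oxoglutarate after deamidation to glutamate. Activated T cells draw on both pyruvate and glutamine, for energy and for building blocks such as citrate and aspartate.

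Deposited counts summed to between 21841034 and 36254631 per library. The 32 genes gave 0.379% to 0.423% of the counts of a library. Their summed level was 3965 ± 209 CPM (counts divided by the TMM-scaled library size) in Tc0, 4111 ± 138 CPM with CoA and 3964 ± 86.4 CPM in Tc22 libraries (mean ± SD, n = 3 here and below), so the pathway's summed level did not separate the groups beyond their spread. The Tc0 library of mouse 728 stood apart from the remaining Tc0 libraries: the chi-square of its counts divided by the degrees of freedom was 216 and 127 when set against them, while all remaining replicate pairs gave 22.3 to 69.8. Its mitochondrially encoded share of counts was 2.003%, against 3.97% and 3.33% in the other Tc0 libraries, 2.66% to 4.0% with CoA and 2.01% to 3.33% in Tc22. The 8 CD8 T cell markers summed to 2456 to 3189 CPM in Tc0, 2129 to 2620 CPM with CoA and 2470 to 3076 CPM in Tc22 libraries. The CD4 and regulatory T cell list, 4 genes of which Ctla4 gave most of the sum, came to 264 to 433, 79.8 to 186 and 131 to 228 CPM in the same order. Cd4 itself stayed between 0.14 and 1.37 CPM. The 6 granulocyte and mast cell markers summed to 0.283 to 1.12, 1.37 to 3.02 and 0.224 to 1.10 CPM, with S100a9 and Elane at 0 in every library, and the 6 dendritic cell markers to 3.73 to 5.0, 5.46 to 9.36 and 4.35 to 5.84 CPM, with Siglech at 0. Gamma delta T cell markers summed to 136 to 187, 100.5 to 129 and 131 to 162 CPM, and those of macrophages to 4.5 to 6.55, 4.97 to 14.0 and 6.18 to 7.13 CPM. Natural killer cell markers summed to 1.21 to 3.90, 0.976 to 1.82 and 3.8 to 5.12 CPM, and B cell and erythroid markers each to under 12 CPM in every library. The part of these lists, of the mitochondrial share and of depth in the results was not tested. In bulk RNA, fewer cells of a type and less RNA per cell cannot be told apart.

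Per kilobase of exon (GENCODE M21, GRCm38, as are positions below), the levels of the members spanned a wide range, and the order was led by the same enzymes in the 3 groups. Exon length here is the union of all annotated exons of a gene. It can exceed the length of the transcripts expressed, so levels compared between genes are approximate. In Tc0 libraries Mdh1, the cytosolic malate dehydrogenase, was the highest at 122 ± 1.5 CPM per kilobase. It was followed by Glud1, the glutamate dehydrogenase that releases 2-oxoglutarate from glutamate, at 81.0 ± 15.9, Pdha1, the catalytic subunit of pyruvate dehydrogenase, at 75 ± 14.5, and Cs, citrate synthase, at 70.7 ± 7.42 CPM per kilobase. The mean ± SD ranges of these last 3 overlap, so their order is not settled. At the lower end stood Pcx, pyruvate carboxylase, at 4.36 ± 2.77, Gls2, the liver-type glutaminase, at 2.81 ± 0.280, and Pdk2, a kinase that inhibits pyruvate dehydrogenase, at 0.299 ± 0.157 CPM per kilobase. Of the pyruvate dehydrogenase kinases among the members, Pdk3 was therefore the abundant one, at 50.8 ± 6.30 CPM per kilobase. Me2, a mitochondrial malic enzyme that turns malate into pyruvate, ranked 7 of 32 by mean in Tc0, 18 with CoA and 6 in Tc22 libraries.

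The members also differed between mice in ways that recurred in the 3 groups. Mpc1, Mpc2, Pdha1, Dld, Pdp1, Sucla2, Suclg2 and Glud1 were highest in mouse 715 in every group, 8 of 32 against 11.6% of all genes tested. Mouse 728 had the lowest level in every group for 9 members, with Dlat, Idh3a and Pdhb besides 6 of those (17.0% of all genes). It had the highest for Pdk2, Pcx, Idh2, Idh3b, Idh3g, Mdh2, Gls2 and Got2, also 8 (20.5% of all genes). For example, Pcx stood at 12.6 to 13.7 CPM in the Tc0 libraries of mice 715 and 725 and at 35.9 CPM in that of mouse 728. The spread of levels within a group therefore partly recurred by mouse number, which the fit takes up with a term for mouse. Handling that the 3 libraries of a mouse may share cannot be told apart from the animal.

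**Figure D1:**
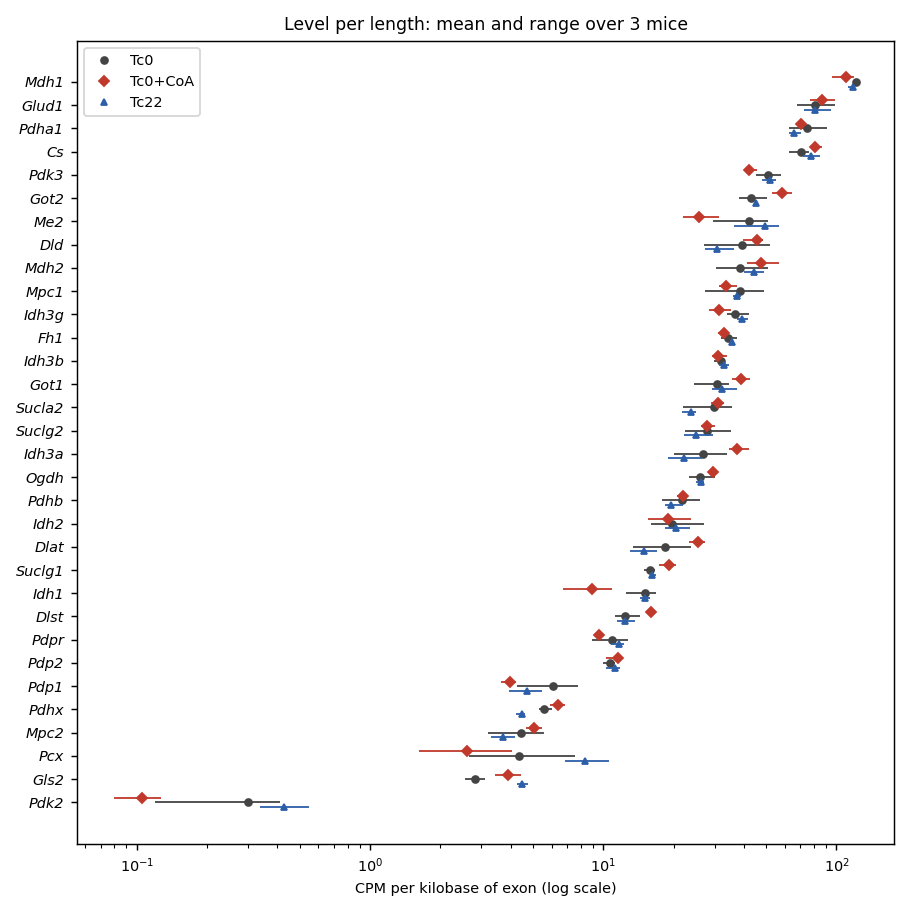
Level of each of the 32 genes in CPM per kilobase of exon (horizontal log axis); points are group means and lines the range over the 3 mice. Mdh1 and Glud1 lead and Pdk2 is the lowest in all 3 groups.

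Promoter windows were read for 28 of the 32 genes (37 windows), as the 250 bases before the annotated start, from RefSeq on GRCm38.p6. Those of 4 genes called with CoA are printed as a pair of each direction, without regard to the size of their difference. Dlat and Dlst, the acyltransferase subunits that hand the acyl group to CoA in the pyruvate and oxoglutarate dehydrogenase complexes, were higher, and Pcx and Pdk2 were lower. Each runs 5′ to 3′ on the gene's strand, and capitals mark 3 motifs searched on both strands, the E-box CACGTG, the GC box GGGCGG and the CCAAT box CCAAT. The windows are chr9:50659781-50660030 (minus strand) for Dlat, chr12:85110583-85110832 (plus) for Dlst, chr19:4510222-4510471 (plus) for Pcx and chr11:95041372-95041621 (minus) for Pdk2. Pcx and Pdk2 have another annotated start each, in whose windows none of the motifs was found.
Dlat: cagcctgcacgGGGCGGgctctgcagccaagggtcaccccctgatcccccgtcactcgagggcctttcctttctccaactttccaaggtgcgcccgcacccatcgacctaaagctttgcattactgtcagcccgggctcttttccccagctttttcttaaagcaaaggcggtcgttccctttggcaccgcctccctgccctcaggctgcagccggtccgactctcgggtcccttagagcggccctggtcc
Dlst: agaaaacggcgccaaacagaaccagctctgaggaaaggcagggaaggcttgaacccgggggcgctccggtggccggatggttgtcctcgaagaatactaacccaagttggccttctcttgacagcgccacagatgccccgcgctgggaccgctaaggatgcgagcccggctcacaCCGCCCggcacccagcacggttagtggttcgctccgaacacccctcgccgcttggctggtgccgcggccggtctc
Pcx: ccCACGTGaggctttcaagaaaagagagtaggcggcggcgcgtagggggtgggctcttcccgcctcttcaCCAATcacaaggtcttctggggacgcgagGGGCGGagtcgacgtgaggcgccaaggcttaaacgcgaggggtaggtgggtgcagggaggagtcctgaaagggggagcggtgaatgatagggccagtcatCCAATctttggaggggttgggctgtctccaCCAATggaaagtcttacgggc
Pdk2: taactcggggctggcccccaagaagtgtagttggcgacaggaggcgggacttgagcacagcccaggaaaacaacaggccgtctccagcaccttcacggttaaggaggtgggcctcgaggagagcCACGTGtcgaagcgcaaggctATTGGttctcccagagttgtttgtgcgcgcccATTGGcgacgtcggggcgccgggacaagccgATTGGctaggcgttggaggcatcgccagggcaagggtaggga
The windows of Dlat and Dlst hold a GC box, whose first base lies 239 and 75 bases before the start, and neither of the other motifs. That of Pcx holds an E-box at 248, CCAAT boxes at 180, 51 and 21 and a GC box at 151 bases before the start. That of Pdk2 holds an E-box at 126 and CCAAT boxes at 105, 73 and 42 bases before the start. The other called genes with windows did not follow this split. Got2, called higher, held none of the motifs. Idh1, called lower, held no E-box. Its windows held a GC box at 19 bases before one start, and GC boxes at 171 and 107 with a CCAAT box at 151 before another. No windows were found for Gls2, Idh3a, Me2 and Pdp1. Over all 32851 windows of the same length, 6.02% hold the E-box, 32.7% the GC box and 33.8% the CCAAT box, against 7, 23 and 20 of the 37 windows of the members. Windows of a gene can overlap and hold the same match, and by gene the matches were in 5, 20 and 17 of the 28. A match describes the letters of the window and is not a binding site.

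Adding CoA to Tc0 cells asks which transcripts differ when the cofactor is supplied. With CoA, both acyltransferase genes Dlat and Dlst, the catalytic subunit gene Idh3a of the NAD-dependent isocitrate dehydrogenase, the mitochondrial aspartate aminotransferase gene Got2 and the glutaminase gene Gls2 were higher. Pdk2, the phosphatase gene Pdp1, the anaplerotic gene Pcx, the malic enzyme gene Me2 and the cytosolic isocitrate dehydrogenase gene Idh1 were lower. By edgeR 5 members passed an adjusted p of 0.05 as higher and 5 as lower, which is 31.25% of the members against 24.5% of all genes tested (12.5% higher, 12.0% lower). The CPM ranges of the groups did not overlap for 10 of the 32 (31.25%), against 27.7% of all genes tested. Both shares lay near the background. The median log2 fold change of the members was 0.05, against -0.01 over all genes. It turned to -0.018 without the Tc0 library of mouse 728 and to -0.014 without the CoA library of mouse 728, and was 0.13 and 0.14 without those of mouse 715. All 10 calls were lost when mouse 725's library was left out of the Tc0 group (adjusted p from 0.0574 to 0.204) or of the CoA group (0.0627 to 0.206).

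Dlat (ENSMUSG00000000168, chromosome 9, 50634633 to 50659780, minus strand) was the called member of pyruvate entry. Its levels were 116, 88.5 and 65.6 CPM in the Tc0 libraries of mice 715, 725 and 728 (that order is kept below) and 124, 134 and 114 CPM with CoA, a log2 difference of 0.50 (SE 0.13, adjusted p = 0.0230). The groups overlapped, because the library of mouse 715 without CoA lay above that of mouse 728 with it. Within mice the log2 differences of Dlat were 0.09, 0.60 and 0.80, small in mouse 715. The other subunit genes of the complex did not pass. Pdha1 stood at 339, 269 and 233 CPM without and 273, 260.4 and 253 CPM with CoA (-0.08, SE 0.11, adjusted p = 0.637). It was lower with CoA in mice 715 and 725 and higher in mouse 728, and its 95% interval ran from -0.32 to 0.17 on the log2 scale. Pdhb, Dld and Pdhx had log2 fold changes of 0.02, 0.25 and 0.20, and the carrier genes Mpc1 and Mpc2 of -0.17 and 0.21, with adjusted p from 0.205 to 0.909.

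Among the regulators of the complex, a kinase gene and a phosphatase gene were both lower. Pdk2, whose product phosphorylates and so inhibits pyruvate dehydrogenase (ENSMUSG00000038967, chromosome 11, 95026258 to 95041354, minus strand), had the lowest log2 fold change of the 32. It went from 0.377, 1.17 and 1.29 to 0.341, 0.252 and 0.399 CPM (-1.43, SE 0.43, adjusted p = 0.0377). These values rest on 12, 25 and 47 counts without and 9, 7 and 9 counts with CoA, and in mouse 715 the levels were nearly equal. Pdp1, whose product removes the inhibiting phosphate (ENSMUSG00000049225, chromosome 4, 11958184 to 11966452, minus strand), went from 35.0, 27.8 and 19.2 to 19.0, 18.0 and 16.5 CPM (-0.58, SE 0.14, adjusted p = 0.0177). The groups did not overlap for Pdp1, although the lowest Tc0 value and the highest value with CoA nearly met. Its difference was largest in mouse 715, with log2 values of -0.88, -0.62 and -0.22 in the 3 mice. Pdk3 (-0.26, adjusted p = 0.113), the second phosphatase gene Pdp2 (0.11) and Pdpr, a regulatory subunit of the phosphatase (-0.16), did not pass.

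The enzymes that enter or leave the cycle by pyruvate at other points were lower with CoA. Pcx (ENSMUSG00000024892, chromosome 19, 4510472 to 4621752, plus strand) stood at 13.7, 12.6 and 35.9 CPM without and 10.2, 7.66 and 19.3 CPM with CoA (-0.69, SE 0.19, adjusted p = 0.0283). In both groups the library of mouse 728 was the highest, so the groups overlapped while the drop was seen in all 3 mice (log2 -0.43, -0.71 and -0.89). Me2 (ENSMUSG00000024556, chromosome 18, 73769903 to 73815449, minus strand) levels were 214, 369.6 and 333 CPM without and 175, 159 and 227 CPM with CoA (-0.67, SE 0.16, adjusted p = 0.0165). Me2 was lower in every mouse, most in mouse 725, and mouse 728 with CoA still lay above mouse 715 without it. Without the library with CoA of mouse 725 its log2 fold change was -0.44, and without the Tc0 library of mouse 728 that of Pcx was -0.46.

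Among the isocitrate dehydrogenase genes, Idh3a of the cycle was higher with CoA and the cytosolic Idh1 was lower. Idh3a (ENSMUSG00000032279, chromosome 9, 54586334 to 54604661, plus strand) had the highest log2 fold change of the 32. It was at 172, 132 and 102 CPM without and 183, 214 and 175 CPM with CoA (0.53, SE 0.14, adjusted p = 0.0220). Every library with CoA lay above every Tc0 library, but the difference within mouse 715 was small, at 0.09, 0.70 and 0.79 in the 3 mice. Idh3b and Idh3g, the other subunits of the same enzyme, had log2 fold changes of -0.04 (adjusted p = 0.790) and -0.23 (adjusted p = 0.100). Idh1, the cytosolic NADP-dependent enzyme (ENSMUSG00000025950, chromosome 1, 65158616 to 65186500, minus strand), went from 44.4, 46.7 and 34.7 to 30.1, 18.6 and 25.9 CPM (-0.76, SE 0.18, adjusted p = 0.0146). Its groups did not overlap, and mouse 725 showed the largest difference (-0.56, -1.32 and -0.42). Idh2, the mitochondrial NADP-dependent enzyme, stood at 50.9 ± 16.4 and 49.0 ± 10.9 CPM and did not pass (-0.03, adjusted p = 0.868).

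Dlst (ENSMUSG00000004789, chromosome 12, 85110833 to 85134845, plus strand) was at 137, 107 and 113 CPM without and 147, 161 and 149 CPM with CoA (0.37, SE 0.11, adjusted p = 0.0352). Its groups did not overlap, and the difference was smallest in mouse 715 (0.10, 0.58 and 0.41). Ogdh, the oxoglutarate-binding subunit of the same complex, stood at 133, 127 and 164 CPM without and 157, 156 and 170.0 CPM with CoA (0.20, SE 0.10, adjusted p = 0.182). It was higher with CoA in all 3 mice, but the Tc0 library of mouse 728 lay above those of mice 715 and 725 with CoA. Cs, which condenses acetyl-CoA with oxaloacetate, stood at 425, 360.2 and 441 CPM without and 455, 449 and 502 CPM with CoA (0.20, SE 0.10, adjusted p = 0.182). The ranges of Cs did not touch, yet the fit did not call it, and its interval ran from -0.03 to 0.43. The succinyl-CoA ligase genes Sucla2, Suclg1 and Suclg2 (0.08, 0.26 and 0.02), the fumarase gene Fh1 (-0.06) and the malate dehydrogenase genes Mdh1 and Mdh2 (-0.16 and 0.32) did not pass, with adjusted p from 0.0734 to 0.929.

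On the glutamine side, Got2, which trades glutamate and oxaloacetate for 2-oxoglutarate and aspartate in mitochondria (ENSMUSG00000031672, chromosome 8, 95864134 to 95888547, minus strand), stood at 191, 185 and 243 CPM without and 255, 280.2 and 312 CPM with CoA (0.46, SE 0.11, adjusted p = 0.0150). Every library with CoA was above every Tc0 library, and the differences within mice were alike (0.42, 0.60 and 0.36). Gls2, which turns glutamine into glutamate (ENSMUSG00000044005, chromosome 10, 128194457 to 128210004, plus strand), was at 9.59, 8.85 and 10.8 CPM without and 11.9, 13.2 and 15.3 CPM with CoA (0.47, SE 0.14, adjusted p = 0.0320). Its groups did not overlap either. For Got2 a stretch of 434 exonic bases lies opposite Gm45760, and for Gls2 one of 97 lies opposite exons of Spryd4. How the counting treated strand is unknown, so reads of these stretches cannot be told apart. Over all libraries Gm45760 had 158 counts against 60984 of Got2, and Spryd4 had 2640 against 3388 of Gls2. Got1, the cytosolic aminotransferase, had a log2 fold change of 0.36 (adjusted p = 0.0766). Glud1 stood at 415, 322 and 286 CPM without and 416, 325 and 357 CPM with CoA (0.11, SE 0.10, adjusted p = 0.457), nearly equal in mice 715 and 725.

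**Figure D2:**
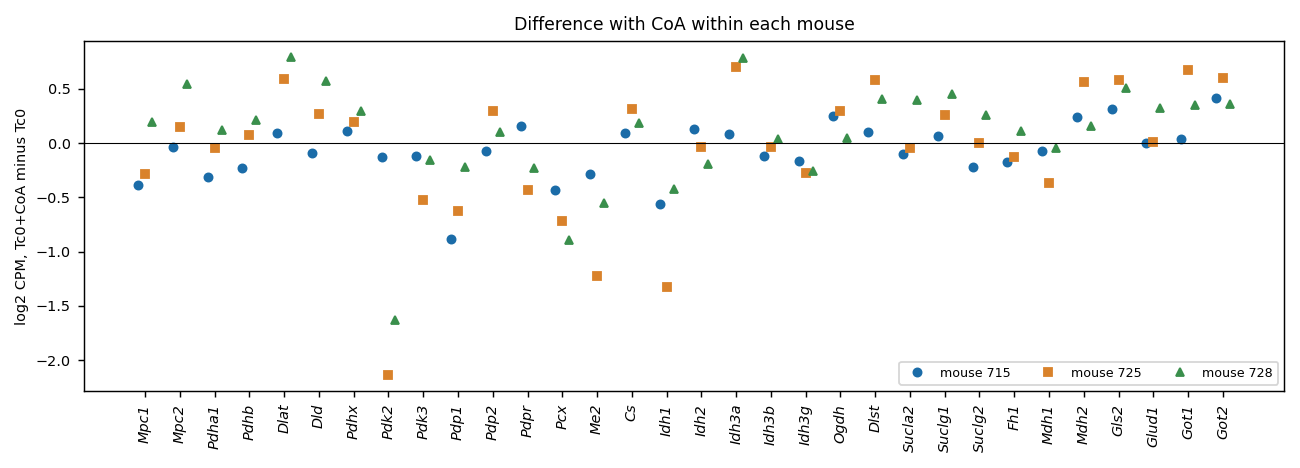
Log2 difference in CPM between the library with CoA and the Tc0 library of the same mouse, for each of the 32 genes (vertical axis, log2; 1 point per mouse). Points of mouse 715 lie nearest 0 for 7 of the 10 genes past the threshold.

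In 7 of the 10 called members (Dlat, Dlst, Gls2, Idh3a, Me2, Pcx and Pdk2) the difference with CoA was smallest in mouse 715, which was also so for 64.6% of all genes called in this comparison. Without that of mouse 728 with CoA all but Pdp1 and Idh1 were lost (0.0548 to 0.162), and without the Tc0 library of mouse 728 Dlat, Pdk2, Pcx, Idh3a and Dlst were lost (0.0593 to 0.113) while Mpc1, Ogdh and Mdh2 passed. Without mouse 715 in Tc0, Pdp1 and Gls2 were lost (0.0698 to 0.0777), and without it in the CoA group Pdp1 was lost (0.0614) while Suclg1 and Got1 passed. Leaving out the Tc22 library of mouse 715 or 725 ended the calls of Dlst and Gls2 (0.0584 to 0.0644). Without the mouse block only Idh1 passed (the other 9 at 0.0622 to 0.317). The groups fitted alone lost Dlst and Gls2 (0.0928 to 0.0952), DESeq2 lost Pdk2 (0.0567), and with no low-count filter Gls2 was lost (0.0733). No called member changed sign in any of these fits.

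Of 40 measured other genes of the pathway, 7 were higher and 3 lower with CoA. Over all genes tested, 12.5% were higher and 12.0% lower. Ldhb, the lactate dehydrogenase B subunit (0.88, SE 0.16, adjusted p = 0.00590), Slc25a13, a mitochondrial aspartate-glutamate carrier (0.64, SE 0.13, adjusted p = 0.00877), and Aco1, the cytosolic aconitase (0.43, SE 0.10, adjusted p = 0.0138), were higher. So was Aldh18a1, which starts proline synthesis from glutamate (0.56, SE 0.14, adjusted p = 0.0195). Me1, the cytosolic NADP-dependent malic enzyme, was lower (-1.59, SE 0.34, adjusted p = 0.0110), in the same direction as Me2. The kinase gene Pdk1, at 413 ± 108 CPM in Tc0 and 249.9 ± 42.4 CPM with CoA, was also lower (-0.68, SE 0.19, adjusted p = 0.0303). Pdk1 is named as the counterpart of Pdk2, after its values were seen. The median log2 fold change of the 40 genes was 0.11.

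**Figure D3:**
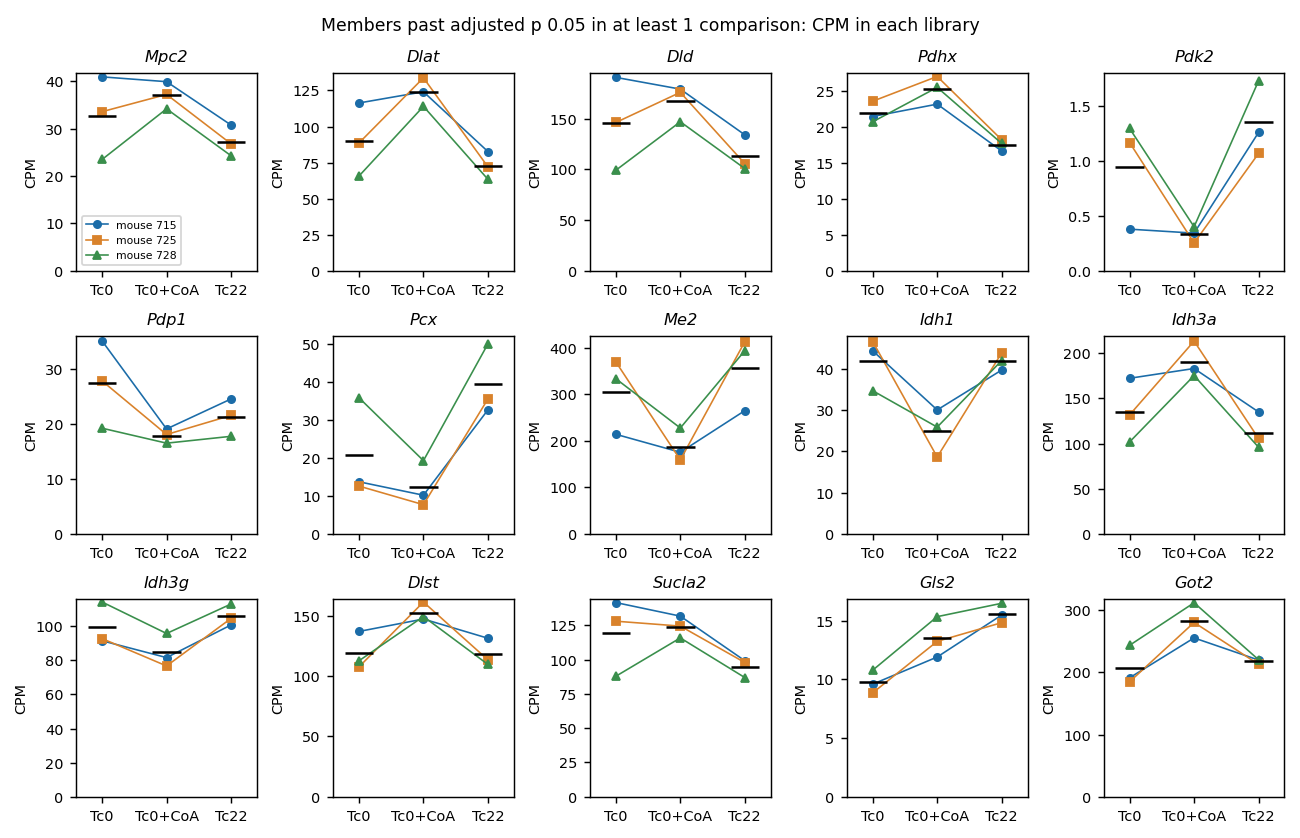
CPM in each of the 9 libraries (vertical axes from 0) for the genes past an adjusted p of 0.05 in at least 1 comparison; points are libraries, joined within a mouse, and black bars are group means. Pcx is highest in the Tc22 library of every mouse, while Dlat and Idh3a are highest with CoA in every mouse.

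The comparison of Tc22 with Tc0 cells with CoA sets the interleukin-22 population beside the CoA-treated one, and it held the most calls among the members. Pdk2, Pcx, Me2, Idh1 and Idh3g were higher in Tc22 cells. Lower were 3 subunit genes of the pyruvate dehydrogenase complex (Dlat, Dld and Pdhx), the carrier gene Mpc2, the cycle genes Idh3a, Dlst and Sucla2, and Got2. By edgeR 5 members were higher and 8 lower, 40.6% of the members against 32% of all genes tested (16.0% in each direction). Since this comparison shares its libraries with the one above, opposite signs for a gene in the 2 are partly built in. The median log2 fold change of the members was -0.08, against 0.01 over all genes, and lay between -0.14 and -0.011 when a library was left out, lowest without mouse 715 of the CoA group and highest without mouse 728 of the Tc22 group.

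At pyruvate entry, Dlat levels were 82.6, 72.0 and 63.4 CPM in the Tc22 libraries, all below the lowest library with CoA (-0.78, SE 0.13, adjusted p = 0.00264). Dld, the dehydrogenase subunit that the pyruvate and oxoglutarate complexes share, stood at 179, 176 and 147 CPM with CoA and 134, 106 and 101 CPM in Tc22 (-0.57, SE 0.13, adjusted p = 0.0106). Pdhx, the subunit that anchors Dld to the complex, stood at 23.2, 27.0 and 25.5 CPM with CoA and 16.6, 18.2 and 17.7 CPM in Tc22 (-0.53, SE 0.12, adjusted p = 0.00809). The groups did not overlap for any of these 3 genes. Mpc2 stood at 39.9, 37.2 and 34.2 CPM with CoA and 30.8, 26.8 and 24.3 CPM in Tc22 (-0.45, SE 0.13, adjusted p = 0.0275). It was lower in each mouse by a like amount (log2 -0.38, -0.47 and -0.49), while its partner Mpc1 did not pass (0.16, adjusted p = 0.412). Pdha1, at 264, 242 and 234 CPM in Tc22, had a log2 difference of -0.09, SE 0.11, adjusted p = 0.549, and Pdhb of -0.17 (adjusted p = 0.278).

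Pdk2 stood at 1.26, 1.07 and 1.73 CPM in Tc22 libraries, from 37, 36 and 54 counts, against 7 to 9 counts per library with CoA (2.01, SE 0.41, adjusted p = 0.00618). All Tc22 libraries lay above all libraries with CoA, by log2 differences of 1.82, 2.0 and 2.05. Pdk3 (0.30, adjusted p = 0.0670) and Pdpr (0.28, adjusted p = 0.110) did not overlap between the groups either but were not called. Pdp1, at 24.5, 21.5 and 17.7 CPM in Tc22, did not pass (0.24, SE 0.14, adjusted p = 0.232), nor did Pdp2 (-0.04).

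Pcx stood at 32.7, 35.6 and 50.1 CPM in Tc22 libraries, 3.41-fold the level with CoA by the fit (1.77, SE 0.20, adjusted p = 0.000509). Each Tc22 library lay above every library with CoA, and the log2 differences were 1.68, 2.21 and 1.38. Me2 was at 265, 413 and 394 CPM (0.90, SE 0.16, adjusted p = 0.00355), and its groups did not overlap. Idh1 was at 39.8, 43.9 and 42.1 CPM, above all libraries with CoA (0.76, SE 0.18, adjusted p = 0.0101). For Me2 and Idh1 the difference was largest in mouse 725, at log2 1.38 and 1.24.

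Idh3a stood at 135, 106 and 95.9 CPM in Tc22, 1.73-fold lower than with CoA by the fit (-0.79, SE 0.14, adjusted p = 0.00327). Idh3g, a regulatory subunit of the same enzyme, went the other way, at 81.6, 76.7 and 95.8 CPM with CoA and 101, 105 and 113 CPM in Tc22 (0.33, SE 0.09, adjusted p = 0.0238). The groups did not overlap for either gene, and Idh3b lay at 0.08 (adjusted p = 0.506). Dlst was at 131, 113 and 109.5 CPM (-0.38, SE 0.11, adjusted p = 0.0257). Sucla2, the ADP-forming subunit of succinyl-CoA ligase, was at 132, 124 and 116 CPM with CoA and 99.2, 97.8 and 86.9 CPM in Tc22 (-0.39, SE 0.12, adjusted p = 0.0301). Both lay lower in every Tc22 library than in any library with CoA. Ogdh, at 148, 136 and 145 CPM, did not pass (-0.17, SE 0.10, adjusted p = 0.215), although the ranges did not overlap. Cs, at 489, 417 and 440.4 CPM, did not pass either (-0.06, SE 0.10, adjusted p = 0.670), with overlapping ranges. The remaining cycle genes Idh2, Suclg1, Suclg2, Fh1, Mdh1 and Mdh2 lay between -0.24 and 0.14 and did not pass.

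Got2 stood at 219.7, 213 and 220.2 CPM in Tc22 libraries, all below the lowest library with CoA (-0.37, SE 0.11, adjusted p = 0.0263). Glud1, at 399, 307 and 318 CPM, did not pass (-0.11, SE 0.10, adjusted p = 0.466). Gls2, at 15.5, 14.8 and 16.5 CPM, and Got1 did not pass either, with log2 fold changes of 0.21 (adjusted p = 0.254) and -0.28 (adjusted p = 0.135). The CPM ranges of the 2 groups did not overlap for 18 of the 32 members (56.25%), against 41.8% of all genes tested.

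Dlat, Idh3a, Me2, Pcx and Pdk2 remained called in every alternative fit, and no called member changed sign. Each of the other 8 calls was lost in some alternative fit. Mpc2, Dld, Idh3g, Dlst, Sucla2 and Got2 were lost when the CoA library of mouse 725 was left out (adjusted p from 0.0512 to 0.158) and with no mouse term (0.0792 to 0.160), and the same 6 with Pdhx were lost without that of mouse 728 (0.0618 to 0.190). Without the Tc22 library of mouse 725 these 7 and Idh1 were lost (0.0586 to 0.149), without that of mouse 715 Mpc2, Idh3g, Dlst, Sucla2 and Got2 (0.0548 to 0.143), and without that of mouse 728 Dlst and Got2 (0.0887 to 0.120). Pdk3 passed as higher with the compared groups alone (0.0448) and without mouse 728 of the Tc0 group (0.0413). Without mouse 715 of the CoA group, Pdk3 and Pdpr passed as higher and Suclg1 and Got1 as lower (0.0215 to 0.0475).

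Of the 40 other genes of the pathway, 6 were higher and 8 lower in Tc22 than with CoA. Over all genes tested the share was 16.0% in each direction. Me1 was higher (2.37, SE 0.34, adjusted p = 0.00140). Lower were Slc25a13 (-0.83, SE 0.13, adjusted p = 0.00205), Ldhb (-0.89, SE 0.16, adjusted p = 0.00335), Slc38a1, a glutamine transporter of the plasma membrane (-0.50, SE 0.10, adjusted p = 0.00591), and Lias, the synthase of the lipoyl group that Dlat and Dlst carry (-0.44, SE 0.10, adjusted p = 0.0116). The malic enzyme genes Me1 and Me2 were thus higher in Tc22 than with CoA. The median of the 40 genes was -0.08.

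Setting Tc22 beside Tc0 cells asks how the interleukin-22 population differs from Tc0 cells of the same mice. Few members differed. Pcx and Gls2 were higher in Tc22 cells, and the rest of the pyruvate, TCA cycle and glutamine genes did not pass. By edgeR 2 members were higher and 0 lower, 6.25% against 3.68% of all genes tested (2.48% higher, 1.21% lower). At an unadjusted p under 0.05 there were 2 higher and 4 lower of the 32 members, beside 1793 higher and 1455 lower of all 15348 genes tested. DESeq2 gave the same member counts as edgeR, 2 and 0, beside 627 and 335 of all genes. The CPM ranges did not overlap for 2 members, Gls2 and Pdhx, against 12.5% of all genes tested. The median log2 fold change was 0.03, against -0.01 over all genes, and -0.024 without the Tc0 library of mouse 728.

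Pcx had a mean of 20.7 ± 13.2 CPM in the Tc0 and 39.5 ± 9.34 CPM in the Tc22 group (1.08, SE 0.19, adjusted p = 0.0142). It was higher in all 3 mice (log2 1.25, 1.5 and 0.48), least in mouse 728, whose Tc0 library at 35.9 CPM lay above the Tc22 libraries of mice 715 and 725. Gls2 had means of 9.74 ± 0.974 and 15.6 ± 0.832 CPM (0.68, SE 0.14, adjusted p = 0.0241). Its groups did not overlap, and its differences were alike in the 3 mice (0.69, 0.74 and 0.61). With CoA, Gls2 was higher and Pcx lower than in Tc0, as given above. Neither call held when the Tc0 library of mouse 715 was left out (adjusted p from 0.0717 to 0.0885) or that of mouse 725 (0.0887 to 0.142). The same was so for the Tc22 library of mouse 715 (0.0657 to 0.169) or 725 (0.0814 to 0.128), and with no mouse term in the fit (0.121 to 0.567). The call of Gls2 was also lost without the CoA library of mouse 728 (0.0567). Without the Tc0 library of mouse 728, Mpc2, Dld, Pdp1 and Sucla2 passed as lower (0.0164 to 0.0437). Calls rose over all genes in that fit, to 1555 higher and 1114 lower in place of 380 and 185.

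The member with the lowest log2 fold change in this comparison was Pdp1 (-0.34, SE 0.14, adjusted p = 0.207). All 5 subunit genes of the pyruvate dehydrogenase complex had a fitted value below 0, from -0.32 to -0.14, and none passed. Among them Pdhx (-0.32, adjusted p = 0.166) was lower in every Tc22 library than in any Tc0 library. Pdha1 (-0.17, SE 0.11, adjusted p = 0.381) and Dlat (-0.29, SE 0.13, adjusted p = 0.241) were lower in mice 715 and 725 with little or no difference in mouse 728. Dld (-0.32, adjusted p = 0.205) followed the same order.

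Cs (0.14, SE 0.10, adjusted p = 0.456), Ogdh (0.02, SE 0.10, adjusted p = 0.910) and Glud1 (0.007, SE 0.10, adjusted p = 0.976) did not pass. Their 95% intervals ran from -0.09 to 0.37 for Cs, from -0.20 to 0.25 for Ogdh and from -0.22 to 0.24 for Glud1 on the log2 scale. Of the genes called with CoA, 4 lay at the following log2 fold changes here: Idh1 at 0.0071 (adjusted p = 0.985), Dlst at -0.01 (adjusted p = 0.966), Got2 at 0.09 (adjusted p = 0.665) and Me2 at 0.23 (adjusted p = 0.422). Pdk2 (0.58, SE 0.36, adjusted p = 0.369) varied between mice, at log2 1.70, -0.14 and 0.41. Idh3a (-0.26), Mpc2 (-0.24), Sucla2 (-0.31) and Idh3g (0.10) did not pass, with adjusted p from 0.181 to 0.552. The other members lay between -0.16 and 0.22.

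Of the 40 other pathway genes, edgeR called 0 higher and 0 lower in Tc22 against Tc0 (all genes tested: 2.48% and 1.21%). At an unadjusted p under 0.05 there were 7 higher and 4 lower, beside 1793 and 1455 of all 15348 genes tested. DESeq2 called 1 higher and 0 lower, beside 627 and 335 of all genes. The median of the 40 was 0.07.

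**Figure D4:**
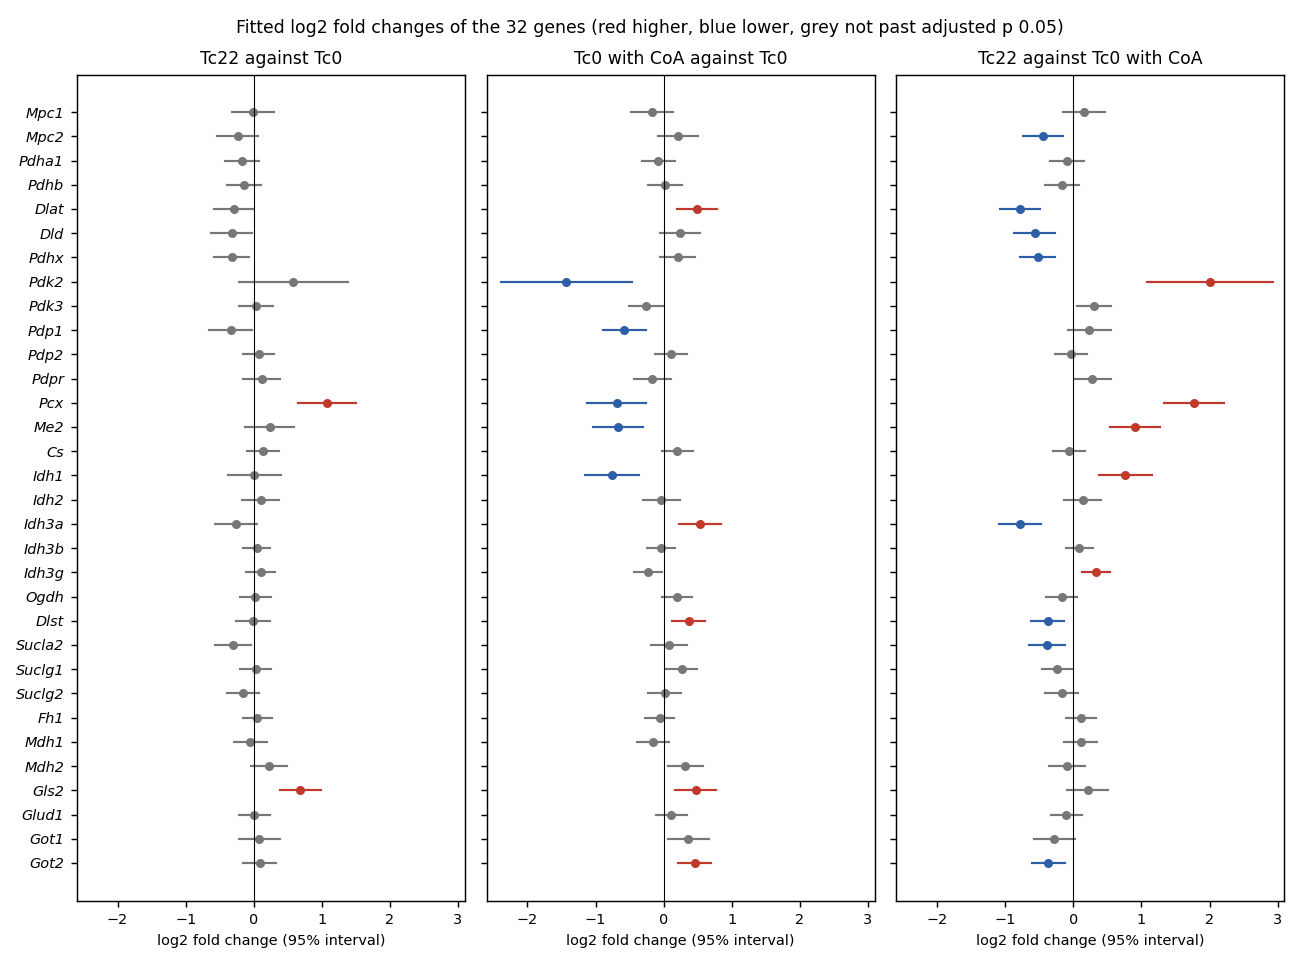
Fitted log2 fold change (horizontal axis) with 95% interval for each of the 32 genes in the 3 comparisons; red points passed an adjusted p of 0.05 as higher, blue as lower, grey did not pass. The counts past the threshold are 10 with CoA, 13 in Tc22 set against the CoA group and 2 in Tc22 set against Tc0.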

How the data were processed

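RNA of activated CD8+ T cells was freed of ribosomal RNA and sequenced in paired ends from stranded total-RNA libraries, per the labels' protocols. The authors deposited gene counts, in a combined table of 9 columns and in 9 single files that held identical values. STAR 2.5.2, RSEM 1.3.0, GRCm38 and mm10 are listed in the submitters' processing notes, where neither their roles nor their order is stated. The sources used here do not give the annotation release, strand setting or filters. Since deposited counts are whole numbers, they may be rounded RSEM estimates. Library totals ran from 21841034 to 36254631 counts; members near 1 CPM, such as Pdk2, carry counting error besides the spread shown.

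After TMM scaling, filterByExpr by group left 15348 genes. The test was the quasi-likelihood F test of edgeR 4.0.16 (R 4.3.3) over all 9 libraries, on group plus mouse, with 4 residual degrees of freedom and a biological coefficient of variation of 0.158. P-values are two-sided, with Benjamini-Hochberg adjustment across the whole table and a threshold of 0.05. The standard error (SE) is |log2 fold change| over the root of F, and intervals are 95%. Inside parentheses the first number is the log2 fold change. CPM use the scaled library sizes, and log2 differences within mice a prior count of 0.5. The design text states that each mouse gave every population, so mouse was a block. Deviations from the group means correlated with r from 0.0667 to 0.575 in same-mouse pairs of libraries (9 pairs). Pairs of different mice gave -0.476 to 0.213 (18 pairs), so the ranges overlap. The CoA library of mouse 725 had r of 0.160 with the Tc0 library of its own mouse and 0.213 with that of mouse 715. The code was tested on simulated data.

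Members and lists were chosen with earlier results of these data known. Given in full were all members past the threshold in any comparison, the largest and smallest fold change in each, and Pdha1, Cs, Ogdh, Glud1 and Pcx. Of 42 other genes of the pathway 40 were tested, and up to 6 called per comparison were named by smallest p, of which 1 gene is not reported here. Positions and exon lengths come from GENCODE M21 (GRCm38) and promoters from RefSeq (GRCm38.p6). Alternatives were no block, DESeq2 1.42.0, other scalings, no filter, the compared groups alone and leaving out each library.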

Additional observations from a re-analysis of the deposited data

How the results depend on the processing

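With 3 mice, calls depend on single libraries and on the mouse block. The 2, 10 and 13 called members of the comparisons in the order below kept their sign under every alternative. Each of them already differed in the same direction in all 3 mice. Leaving out 1 library could therefore hardly turn their sign, and the kept signs are no separate support for the directions. Of 1440 values of single members under the alternatives, 1281 kept direction and side of the threshold, 98 lost and 15 gained the call, and 46 turned sign, in 20 of 96 pairs of gene and comparison. None of these 46 concerned a called value, and all but 2 of them moved by less than 1 SE. Scaling by library size alone or by RLE changed no member's call. With no replicate block, so without the pairing by mouse, 87 genes were higher and 33 lower in Tc22 against Tc0, 800 and 662 in Tc0 with CoA against Tc0, and 1017 and 1080 in Tc22 against Tc0 with CoA, in place of 380 and 185, 1915 and 1848, and 2456 and 2457. Members called without the block numbered 0 higher in Tc22 against Tc0 (edgeR; 2 had an unadjusted p under 0.05 with the block, and DESeq2 called 2), 0 higher and 1 lower with CoA, and 4 higher and 3 lower in Tc22 against Tc0 with CoA. In Tc22 against Tc0, DESeq2 called 627 genes higher and 335 lower, and 831 and 444 passed with no low-count filter. With the compared groups alone, 3 members were higher with CoA. Leaving out 1 library gave 148 to 1555 genes higher and 53 to 1114 lower in Tc22 against Tc0, 656 to 2360 and 504 to 1996 with CoA, and 1148 to 2935 and 1037 to 2978 in Tc22 against Tc0 with CoA. The members called then numbered 0 to 2 higher and 0 to 4 lower, 0 to 7 higher and 0 to 5 lower, and 3 to 7 higher and 2 to 10 lower. The members' median ran from -0.024 to 0.047, from -0.018 to 0.14 and from -0.14 to -0.011 in the same order. Those 2 were Mpc1 and Sucla2. The Tc0 library left out set the sign of Mpc1 in Tc22 against Tc0, at 0.13 (mouse 715) or -0.19 (mouse 728) in place of -0.01. The same held for Sucla2 with CoA, at -0.065 (mouse 728) or 0.18 (mouse 715) in place of 0.08. The cause of these changes was not tested.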

Other observations

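Ratios between subunits of 1 enzyme, which do not depend on scaling, varied with group and mouse. The ratio of Idh3a to Idh3g per kilobase was, in mice 715, 725 and 728, 1.003, 0.756 and 0.474 in Tc0, 1.2, 1.48 and 0.975 with CoA and 0.713, 0.538 and 0.452 in Tc22 libraries. In each mouse it was highest with CoA and lowest in Tc22, with the Tc0 and Tc22 libraries of mouse 728 close together. The ratio of Dlat to Pdha1 per kilobase was 0.262, 0.252 and 0.216 in Tc0, 0.347, 0.393 and 0.344 with CoA and 0.239, 0.228 and 0.207 in Tc22 libraries. All 3 libraries with CoA lay above the other 6. These ratios were chosen after the fold changes were seen and were given no test.

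The levels of Got2 and Got1, the mitochondrial and cytosolic aspartate aminotransferases, kept a ratio per kilobase of 1.15 to 1.56 in Tc0, 1.48 to 1.51 with CoA and 1.22 to 1.51 in Tc22 libraries, and the groups overlapped.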
